A study of Mus musculus with 12 samples.

Results

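The data described here are the RNA-seq profiles of 9 mammary tumors of MMTV-PyVT mice, taken from a series of 12 samples, and the question is how tumors of the same condition differed from each other. The tumors fell into 3 conditions of 3 tumors each: untreated tumors (Tumor in the labels, with no treatment), tumors of mice injected with DMSO, and tumors of mice injected with C646, an inhibitor of the histone acetyltransferase p300. In the labels both injections carry 1 mg/kg, and all tumors come from mice of 12 weeks. All 9 tumors carry the same transgene, the polyoma virus middle T antigen under the promoter of the mouse mammary tumor virus, on the FVB strain, in females with 1 copy of the transgene, so that no tumor is free of the oncogene. Each untreated tumor grew in the thoracic gland of a different mouse, and the injected tumors were the largest tumors of 3 mice per condition. The gland of the injected tumors is not given in the sources used here. The other 3 samples were normal mammary glands of wild-type FVB females of 12 weeks, pools of 3 mice per sample, and are used below only for reference. They were abdominal and inguinal glands, so that their site differs from that of the untreated tumors. Genes were taken where their name was present in all files and their mean over the 9 tumors reached 1 FPKM (fragments per kilobase of transcript, scaled to the mapped fragments of the library), which held for 12008 of 23301 names. Values were used as log2(FPKM + 0.03125) and centred on the mean of each condition, and the spread of a gene is its pooled within-condition standard deviation (SD, 6 residual degrees of freedom) in log2 units. Values of a condition are always given for tumors 1, 2 and 3 in this order, and the numbers only name tumors.

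The middle T antigen binds to signaling proteins below the plasma membrane and drives luminal-type mammary tumors in nearly all females that carry it. A piece of such a tumor holds malignant epithelium, blood vessels, fibroblasts and macrophages, and it can hold the fat, muscle, skin and nerve that surround a gland. RNA from a whole piece sums over all of them. Other programs are states that a cell can enter: type I interferon switches on antiviral genes through dedicated transcription factors, low oxygen stabilizes the factor HIF1 and raises glycolysis and angiogenesis genes, and prolactin induces milk proteins in luminal cells. To see which of these varied between tumors, 37 lists of marker and pathway genes were scored, and a list score is the mean of the centred values over its measured members.

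The files hold FPKM and no counts. The sum over all rows of a tumor lay between 526855 and 783719 FPKM. Relative depth was only estimated, from the most common ratio between the smallest values of a pair of tumors. Between 34.6% and 57.1% of these values lay at that ratio in the pairs given here. By this estimate untreated tumors 2 and 3 had 1.63 and 1.53 times the depth of untreated tumor 1. DMSO tumors 2 and 3 had 1.08 and 1.29 times that of DMSO tumor 1, and C646 tumors 2 and 3 had 1.20 and 0.929 times that of C646 tumor 1. A value of 0 is not always absence: Gapdh, a glycolysis enzyme that every cell uses, was listed at 0, 0.0791 and 0 FPKM in the untreated tumors and at 16.7, 2.11 and 5.82 FPKM in the DMSO tumors. A gene without signal is therefore said to be listed at 0. Untreated and injected tumors belong to 2 experiments whose files hold different rows, so experiment and injection cannot be told apart, and this is why all values were centred within conditions.

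The median gene had a within-condition SD of 0.277, which is a 1.21-fold change, while 720 of 12008 genes (6%) had an SD of at least 1 and 251 had an SD of at least 2. Spread differed between conditions. The median SD was 0.268 among the untreated tumors, 0.279 among the DMSO tumors and 0.175 among the C646 tumors, beside 0.178 among the 3 normal pools. An SD of at least 1 was found for 566 genes in the untreated, 966 in the DMSO and 415 in the C646 tumors, and for 294 genes in the normal pools. DMSO tumors held 48.8% of the within-condition sum of squares, untreated tumors 28.7% and C646 tumors 22.5%. The single tumors with the largest shares were DMSO tumor 3 with 21.0% and DMSO tumor 1 with 15.3%. Differences within conditions made up 52.1% of the whole sum of squares among the 9 tumors. Low genes spread more: 21.4% of the genes between 1 and 2 FPKM had an SD of at least 1, against 2.75% of those between 10 and 50 FPKM. Leaving out 1 tumor at a time gave medians between 0.255 and 0.289 and between 594 and 785 genes with an SD of at least 1. A pseudocount of 1 in place of 0.03125 left 350 such genes, and keeping genes above 0 FPKM in all 9 tumors left 455.

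**Figure D1:**
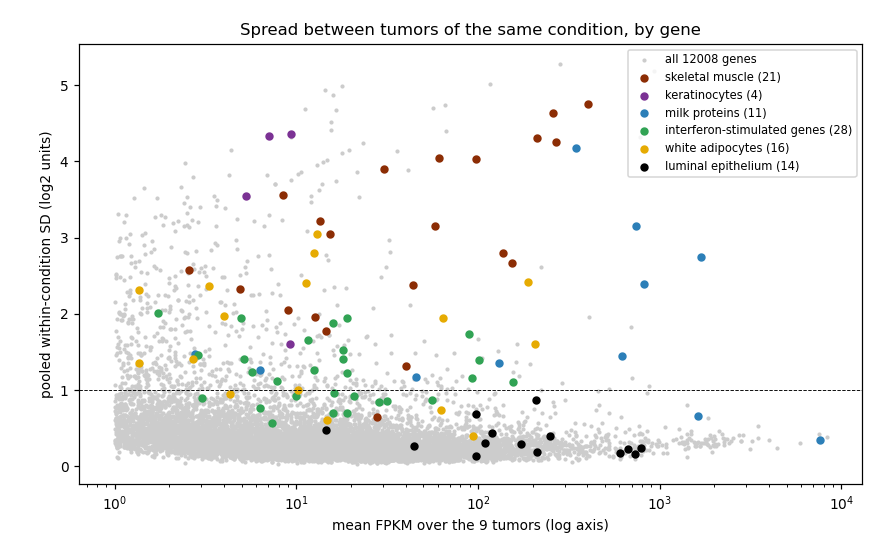
Pooled within-condition SD of log2(FPKM + 0.03125) against the mean FPKM over the 9 tumors (log axis), 1 point per gene, with 6 gene lists in color and a dashed line at an SD of 1. Most muscle, keratinocyte, milk and fat genes lie far above the bulk of genes at the same level, and the 14 luminal genes lie within it, all below the line.

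Just inside the limit of 1 FPKM were Asb11 with a mean of 1.0003, Ogn with 1.00073 and AU041133 with 1.00093 FPKM, and just outside were Pth1r with 0.999, Styx with 0.998 and Hist1h4f with 0.998 FPKM. Their SDs were 2.16, 1.07 and 0.34 inside and 1.23, 0.64 and 3.43 outside.

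Epithelial markers were high in all 9 tumors, as their label of mammary tumor implies. Epcam, an adhesion protein of epithelia, was at 995, 645.98 and 752 FPKM in the untreated, 627, 642 and 524 in the DMSO and 701, 555 and 599.6 in the C646 tumors. Krt8, a keratin of luminal cells, had 678, 502 and 605 FPKM (untreated), 849, 867 and 874 FPKM (DMSO) and 838, 714 and 649 FPKM (C646), and its partner Krt18 had 1044, 708 and 768 FPKM (untreated), 803, 772 and 839 FPKM (DMSO) and 888, 644 and 622 FPKM (C646). The SDs of Epcam, Krt8 and Krt18 were 0.23, 0.17 and 0.24, beside a median of 0.243 for genes at 50 FPKM or more. None of the 14 luminal members reached an SD of 1. The median SD of the list was 0.28, near the 0.277 of all genes. Krt19, another luminal keratin, had the largest SD of the list, 0.87, with 56.8, 227 and 418 FPKM in the DMSO tumors. The luminal score had the second smallest SD of the 31 scored lists, 0.19. Lymphocyte genes were hardly present: 1 of 17 B lymphocyte names and 2 of 22 T and NK cell names passed 1 FPKM, and the B lymphocyte names together summed to between 2.85 and 6.98 FPKM in a tumor against 509.9 to 652 FPKM in the normal pools. Macrophage genes had a median SD of 0.35, above the 0.277 of all genes, and a score SD of 0.20. Csf1r, the receptor of their growth factor, was at 11.3, 9.05 and 9.82 FPKM (untreated), 21.01, 33.9 and 20.7 FPKM (DMSO) and 21.5, 21.5 and 38.1 FPKM (C646).

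The 20 genes with the largest SD were of a few kinds. They include 3 muscle genes (Acta1, Tnnc2 and Tnnt3), 2 keratinocyte markers (Calm4 and Krtdap) and a few further genes with the same pattern (Krt73, Fam25c, Prr9 and Crct1), described below, as well as the secreted proteins Scgb1b27 and Prol1 and the transporter Slc22a27. Another 8 of the 20 were microRNA or small nucleolar RNA genes or rows that join several gene names. The 6 small RNA genes among them were each listed at 0 in most of the tumors. Mir7115, with SD 5.01, had 1044 FPKM in C646 tumor 2 and was listed at 0 in the 8 other tumors, and Mir7068 had 592 FPKM in the same tumor only. Mir425 had 508 FPKM there and at most 2.01 FPKM elsewhere. Mir7115, Mir7068 and Mir425 passed 1 FPKM through C646 tumor 2, so that their large SD was fixed by the filter. Mir6386 (147 FPKM) and Snora64 (86.4 FPKM) were highest in C646 tumor 1, and Snora65 was at 76.9, 55.8 and 0 FPKM in the C646 tumors. Slc22a27, an organic anion transporter, was at 81.5, 89.03 and 76.9 FPKM in the untreated, 715, 0 and 2784 in the DMSO and 1994, 1469.6 and 1158 in the C646 tumors, so that DMSO tumor 2 stood alone. At a mean of at least 10 FPKM the 10 genes with the largest SD were the first 10 of the full ranking.

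**Figure D2:**
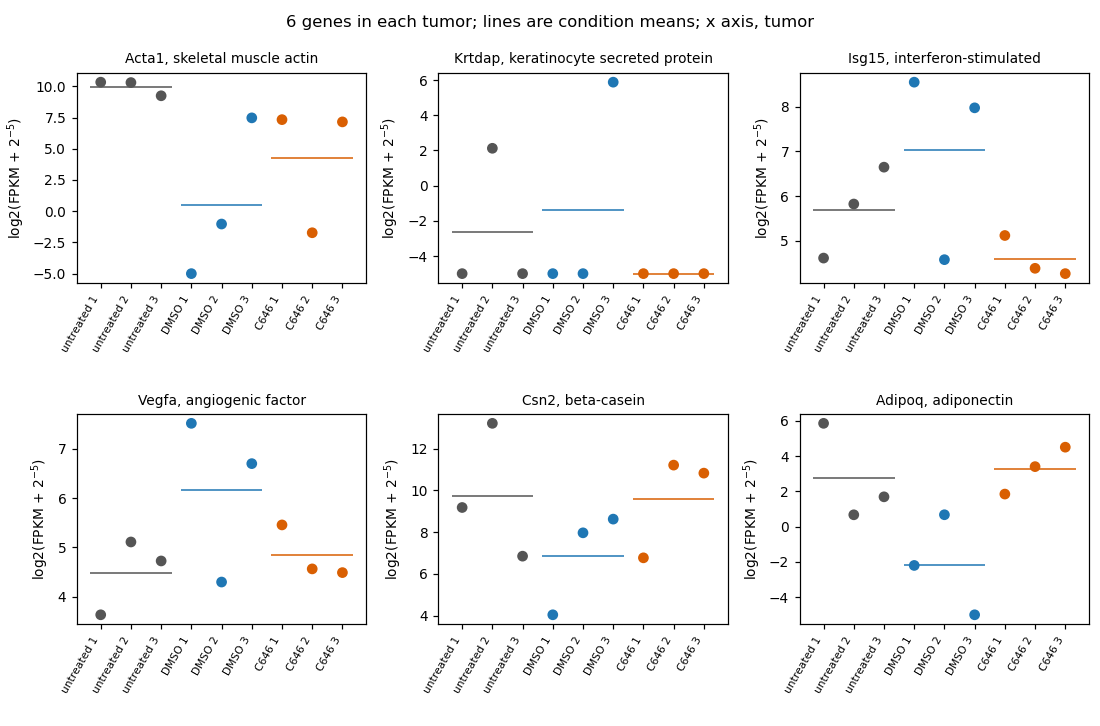
Level of 6 genes in each of the 9 tumors on the log2(FPKM + 0.03125) scale, untreated in gray, DMSO in blue and C646 in orange, with lines at the condition means; genes listed at 0 lie at -5. Acta1 is low in 3 injected tumors, Krtdap is present in DMSO tumor 3 and untreated tumor 2, and Isg15 and Vegfa are low in DMSO tumor 2 and high in DMSO tumors 1 and 3.

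Skeletal muscle genes divided the injected tumors into 2 kinds. Acta1, the actin of skeletal muscle fibers, was at 1289, 1261 and 606 FPKM in the untreated tumors, 0, 0.459 and 178 in the DMSO tumors and 161, 0.271 and 142 in the C646 tumors. It was thus high in all untreated tumors and in DMSO tumor 3 and C646 tumors 1 and 3, and under 1 FPKM in the other 3. Ckm, the creatine kinase of muscle, had 1416, 469 and 383 FPKM (untreated), 0.345, 0.475 and 42.9 FPKM (DMSO) and 55.4, 4.3e-05 and 54.1 FPKM (C646). Mylpf, a light chain of fast myosin, had 506, 411 and 175 FPKM (untreated), 0.398, 0.759 and 54.6 FPKM (DMSO) and 45.9, 1.31 and 38.6 FPKM (C646). Every untreated tumor was above every injected tumor for these genes. The fast troponin subunits followed the same order, with Tnnc2 at 0, 0 and 99.1 and Tnnt3 at 0, 0 and 53.7 FPKM in the DMSO tumors. Of the 21 measured members 20 had an SD of at least 1, and their median SD was 3.05 beside 0.28 for all genes. The member below 1 was Mb, myoglobin, with 63.98, 38.4 and 36.8 FPKM (untreated), 25.4, 9.97 and 32.1 FPKM (DMSO) and 17.7, 9.22 and 15.7 FPKM (C646). In DMSO tumors 1 and 2 and C646 tumor 2, 18, 19 and 18 of the 21 members were under 1 FPKM, against 1 in DMSO tumor 3, 2 in C646 tumor 1 and 1 in C646 tumor 3. The list summed to 8089, 4111 and 2692 FPKM in the untreated tumors, and to 32.8, 18.6 and 667 FPKM in the DMSO and 653, 18.6 and 571 FPKM in the C646 tumors, while the normal pools held 188.6, 78.3 and 65.7 FPKM. In bulk tissue, fewer cells of a type and less RNA per cell cannot be told apart.

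Genes outside the list that followed the muscle score were sought with limma, with condition as a term and the list's own genes left out. The list was taken up for its large score SD, so the counts are a description. Of 11987 genes, 16 rose with the score (0.133%) and 0 fell (0%) at an adjusted p under 0.05, and 480 had an unadjusted p under 0.05 in either direction. The strongest was Cox6a2, the heart and muscle form of a cytochrome oxidase subunit, with a slope of 1.20 per unit of score (SE 0.05, adjusted p = 6.69e-05 in limma). Genes outside all lists with the smallest p were Eef1a2, a translation elongation factor of muscle and neurons (slope 1.17, SE 0.06), Des, the intermediate filament desmin (slope 0.87, SE 0.06), Mybpc1, Myot and Smpx. Des, for example, was at 82.5, 106 and 50.5 FPKM in the untreated, 0.207, 0.568 and 15.9 in the DMSO and 11.7, 0.224 and 10.9 in the C646 tumors. Leaving out 1 tumor gave 3 such genes without untreated tumor 3, C646 tumor 1 or C646 tumor 3, 4 without DMSO tumor 3, 5 without untreated tumor 1, 7 without untreated tumor 2 and 9 without C646 tumor 2. The injected tumors alone gave 0.

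Epidermal genes were high in DMSO tumor 3. Krt10, a keratin of the upper layers of the epidermis, was at 1.999, 2.76 and 58.6 FPKM in the DMSO tumors, 4.71, 3.63 and 2.44 in the untreated and 3.92, 1.805 and 2.64 in the C646 tumors. Its partner Krt1 had 0.0851, 0 and 45.4 FPKM (DMSO), 0.397, 1.68 and 0.0430 FPKM (untreated) and 0.0881, 0.0701 and 0 FPKM (C646). Krtdap, a protein secreted by differentiating keratinocytes, was at 58.98 FPKM in DMSO tumor 3 and 4.33 FPKM in untreated tumor 2 and was listed at 0 in the other 7 tumors, and Calm4, a calcium-binding protein of skin, was at 77.6 and 6.17 FPKM in the same pair of tumors and at most 0.357 FPKM in any other. Only 4 of the 10 keratinocyte markers passed 1 FPKM, and Krt1, Krtdap and Calm4 did so through DMSO tumor 3, so that their large spread was fixed by this filter and is no result about the list. Their score had an SD of 3.36, and with no filter the score SD was 2.56, below the 2.89 of the muscle list. Several genes outside the list had the same order, but they were taken from the genes with the largest SD and are no separate support. Of them at least Crct1 also passed 1 FPKM through DMSO tumor 3. The hair follicle keratin Krt73 had 139 FPKM in DMSO tumor 3 and 8.59 FPKM in untreated tumor 2, Crct1 had 79.1 and 4.97 FPKM and Prr9 131 and 7.54 FPKM. Fam25c was at 78.6 FPKM in DMSO tumor 3 and also at 9.46, 7.19 and 0.382 FPKM in the untreated tumors and 4.53 FPKM in C646 tumor 1. The row 2210011C24Rik,Mir1199 had 134 and 7.59 FPKM.

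Keratins and cornified envelope proteins of squamous and stressed epithelium were also highest in DMSO tumor 3. Krt6a was at 0.278, 0.596 and 30 FPKM in the DMSO and 0.440, 2.98 and 0.123 FPKM in the untreated tumors, and Krt6b was at 0, 0 and 12.3 FPKM in the DMSO and 0.256, 0.163 and 0 FPKM in the untreated tumors. Sprr1a, a precursor of the cornified envelope, was at 0, 2.303 and 93.2 FPKM (DMSO), 4.75, 3.86 and 0.698 FPKM (untreated) and 0.306, 0.473 and 2.204 FPKM (C646). Among the untreated tumors 2 of the 4 measured members were highest in tumor 2, and all 4 were lowest in tumor 3, beside 31.1% and 31.9% of all genes. Of these 4, all but Sprr1a passed 1 FPKM through DMSO tumor 3, so that their spread too was fixed by the filter, and the score SD was 2.94, or 2.12 with no filter. Basal genes that skin shares with the mammary myoepithelium were also highest in DMSO tumor 3, with Krt5 at 8.01, 25.6 and 229 FPKM and Krt17 at 14.7, 10.04 and 92.2 FPKM in the DMSO tumors, but Acta2, the contractile actin of myoepithelium and smooth muscle, was at 10.9, 9.096 and 21.8 FPKM, and Mylk, myosin light chain kinase, was highest in DMSO tumor 1 with 31.7, 3.35 and 3.29 FPKM. The myoepithelial score SD was 0.53 and was 0.24 without DMSO tumor 3.

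The keratinocyte score was 6.06 in DMSO tumor 3, its highest value, so the genes that follow it are largely those that stand apart in this tumor, and their counts are given as a description. Of 12004 genes, 14 rose (0.117%) and 3 fell (0.025%) with the keratinocyte score in limma, and 2052 had an unadjusted p under 0.05. S100a8, a calcium-binding protein of neutrophils and inflamed skin, had the smallest adjusted p (0.000143, slope 0.35, SE 0.02) and was at 121, 275 and 76.4 FPKM (untreated), 79.4, 67.8 and 654 FPKM (DMSO) and 92.1, 78.1 and 71.9 FPKM (C646). Outside all lists, Mt2 (a metallothionein), Zfp703, Isyna1 and Ndufa4l2 were among the genes that rose with the score, and the secretoglobins Scgb1b27, Scgb2b27 and Scgb2b26 fell. With the squamous score 29 genes rose (0.242%) and 11 fell (0.0916%), and 2170 had an unadjusted p under 0.05. Those with the smallest p outside all lists were Arsi, Dysf, Id3, Ptges and Hspb8 among the genes that rose, and Papln, Tc2n, Adrb1, Sntb1 and Tcaf1 among those that fell. Papln was at 27.1, 18.7 and 57.9 FPKM in the untreated, 174, 94.2 and 21.99 in the DMSO and 89.7, 64.8 and 61.5 in the C646 tumors. These counts turn on single tumors: without DMSO tumor 2 they were 150 and 273 genes, and without untreated tumor 3 they were 4 and 6. The keratinocyte count was 9 without untreated tumor 1 and 7 without untreated tumor 2, and the squamous count was 26 without untreated tumor 2, 3 without DMSO tumor 1, 17 without C646 tumor 1 and 20 without C646 tumor 3. Without DMSO tumor 3 fewer than 3 members of either list passed 1 FPKM, and no score could be made.

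A further group of genes had opposite extremes in DMSO tumors 2 and 3. Among the 500 genes with the largest SD, 23 genes grouped at a mean deviation of 4.39 in DMSO tumor 2 and -4.20 in DMSO tumor 3, with -0.19 in DMSO tumor 1 and between -0.63 and 0.66 in the 6 untreated and C646 tumors. Of the 23, 5 were small RNA genes or joined rows, and those described here, which encode secreted proteins, were picked after their values were seen. Scgb1b27, a secretoglobin and the gene with the largest SD of all (5.28), was at 88.03, 5.25 and 137 FPKM in the untreated, 902, 1128 and 0 in the DMSO and 86.8, 23.6 and 185 in the C646 tumors. Its relative Scgb2b26 was at 34.3, 2.31 and 35.8 FPKM (untreated), 14.6, 228 and 0 FPKM (DMSO) and 0.489, 1.24 and 5.603 FPKM (C646). Prol1, a secreted proline-rich protein, was at 1.74, 0.695 and 0.406 FPKM (untreated), 116, 461 and 0 FPKM (DMSO) and 3.65, 6.12 and 12.98 FPKM (C646). Pip, a prolactin-induced protein of exocrine secretions, was at 0.339, 2.22 and 26.96 FPKM (untreated), 103, 150.2 and 1.398 FPKM (DMSO) and 0.456, 1.88 and 5.06 FPKM (C646), so that DMSO tumors 1 and 2 and untreated tumor 3 were high. The joined row Mucl1,Spt1 was at 52.7, 6891 and 0.286 FPKM in the DMSO tumors, and was listed at 0 in all untreated tumors. Klk1, the tissue kallikrein, had 1.04, 123.4 and 0 FPKM, Crisp3 had 0.290, 24.9 and 0 FPKM and the row Muc19,Smgc, which joins a mucin of salivary gland with its neighbor, had 0.0738, 11.6 and 0 FPKM in the DMSO tumors, while in the other 6 tumors these 3 were at most 0.283 FPKM. Klk1, Crisp3 and the row Muc19,Smgc passed 1 FPKM through DMSO tumor 2, so that their extreme in this tumor was fixed by the filter. Secretoglobins and kallikreins form families of near-identical copies, and how the authors' counting divided reads among them is not known.

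Milk proteins spread widely. Their score was -0.49, 2.34 and -1.85 in the untreated and -1.52, 0.34 and 1.18 in the DMSO tumors. In these 2 conditions this is the order of the squamous score. In the C646 tumors the milk score was -1.55, 1.19 and 0.36, which is another order. Csn2, beta-casein, was at 580.4, 9504 and 115 FPKM in the untreated, 16.4, 250.2 and 395 in the DMSO and 109, 2372 and 1818 in the C646 tumors, so that untreated tumor 2 was highest and DMSO tumor 1 lowest of the 9. Csn1s1, another casein, had 309.99, 4013 and 61.1 FPKM (untreated), 29.5, 134 and 400.02 FPKM (DMSO) and 98.6, 1105 and 1246 FPKM (C646). Csn3, kappa-casein, was the highest of the 11 genes in every tumor and the steadiest, with 9136, 12483 and 15346 FPKM (untreated), 4656, 6810.4 and 3707 FPKM (DMSO) and 5409.8, 5846 and 4978 FPKM (C646) and an SD of 0.34. Glycam1, a mucin-like protein of milk that lymph node vessels also make, had the largest SD of the list, 4.17, with 33.3, 2569.99 and 2.71 FPKM (untreated), 0.794, 1.87 and 93.1 FPKM (DMSO) and 2.36, 397 and 13.2 FPKM (C646). Lalba, the lactose synthase subunit, ranged from 437 to 2651 FPKM (SD 0.66), Wap (SD 1.45) from 88.6 to 2999 FPKM and Csn1s2a (SD 3.15) from 3.65 to 4754 FPKM. Of the 11 members, 9 had an SD of at least 1, with a median SD of 1.45. Untreated tumor 2 was highest in its condition for 10 of 11 members, beside 31.1% of all genes, and C646 tumor 1 lowest for 9, beside 35.7%. Yet 0 of 11997 genes outside the list rose or fell with the milk score in limma at an adjusted p under 0.05 (0% in either direction), while 1292 had an unadjusted p under 0.05. Leaving out untreated tumor 3 gave 1 gene.

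Fat genes were led by untreated tumor 1. Adipoq, the adipocyte hormone adiponectin, was at 58.2, 1.56 and 3.205 FPKM in the untreated, 0.186, 1.57 and 0 in the DMSO and 3.57, 10.6 and 22.8 in the C646 tumors. Plin1, the coat protein of lipid droplets, had 15.5, 0.119 and 1.4 FPKM (untreated), 0, 0.509 and 0.119 FPKM (DMSO) and 1.42, 3.94 and 6.71 FPKM (C646), and Fabp4, the fatty acid carrier, had 1080.2, 81.7 and 82.3 FPKM (untreated), 9.76, 36.1 and 45.9 FPKM (DMSO) and 48.8, 232 and 234 FPKM (C646). Untreated tumor 1 was highest of the 9 tumors for all 3 genes. The hormone resistin, Retn, had the largest SD of the list, 3.04, with 79.7, 0.364 and 3.07 FPKM (untreated), 0, 2.75 and 0.633 FPKM (DMSO) and 2.83, 7.61 and 19.97 FPKM (C646). Of the 16 white adipocyte members 15 were highest in untreated tumor 1 within its condition (43.4% of all genes were). Among the C646 tumors 15 were lowest in tumor 1 and 15 highest in tumor 3, beside 35.7% and 34.0% of all genes. In the normal pools Adipoq was at 1207, 1517 and 1400.5 FPKM and Fabp4 at 13737, 17616 and 16228 FPKM, above every tumor. Ucp1, the uncoupling protein of brown fat, had 33.1, 0 and 1.64 FPKM (untreated), 0, 0.220 and 0 FPKM (DMSO) and 0, 3.38 and 0 FPKM (C646), and Cidea, a lipid droplet protein of brown fat, had 80.2, 6.49 and 4.35 FPKM (untreated), 3.65, 1.89 and 3.44 FPKM (DMSO) and 0.729, 7.04 and 2.95 FPKM (C646). Ucp1 passed 1 FPKM through untreated tumor 1, so that its extreme in this tumor was fixed by the filter. The score SD was 1.51 for white and 1.26 for brown adipocytes, and without untreated tumor 1 it was 1.11 and 0.60.

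Interferon-stimulated genes had 1 order of tumors for nearly the whole list and a score that was even among the 3 C646 tumors. Isg15, a ubiquitin-like protein, was at 24.4, 56.5 and 100.1 FPKM in the untreated, 375, 23.8 and 252 in the DMSO and 34.7, 20.8 and 19.2 in the C646 tumors. Ifit1, which binds foreign RNA, had 1.89, 4.29 and 18.6 FPKM (untreated), 52.9, 2.14 and 17.3 FPKM (DMSO) and 2.96, 1.98 and 2.27 FPKM (C646), and Ifit2 had 0.430, 1.001 and 2.13 FPKM (untreated), 8.28, 2.25 and 5.54 FPKM (DMSO) and 2.19, 3.51 and 1.81 FPKM (C646). Untreated tumor 3 and DMSO tumors 1 and 3 were the high tumors of their conditions for all of these. Among the DMSO tumors Oas3, an enzyme that senses double-stranded RNA, was at 8.097, 0.120 and 3.02 FPKM and its relative Oas2 at 70.7, 2.099 and 27.7 FPKM. Rsad2, the antiviral enzyme viperin, was at 16.5, 0.738 and 10.9 FPKM there, and Usp18, which removes Isg15 from proteins, at 74.3, 2.08 and 30.96 FPKM. DMSO tumors 1 and 3 were thus high and DMSO tumor 2 was near the C646 tumors, where the same 4 genes lay between 0.235 and 3.71 FPKM. All 28 measured members were lowest in DMSO tumor 2 within DMSO, and 27 were highest in DMSO tumor 1, beside 28.3% and 34.1% of all genes. In the untreated tumors 27 of 28 were highest in tumor 3, beside 25.6% of all genes. The score had a range of 10.2-fold among the DMSO, 4.34-fold among the untreated and 1.035-fold among the C646 tumors, and its SD of 1.17 was 0.75 without DMSO tumor 2. Of the 28 members 17 had an SD of at least 1 and the median SD was 1.19. Irf7, a transcription factor of the pathway, had the same high tumors, at 48.2, 51 and 177 FPKM (untreated), 296, 30.2 and 153 FPKM (DMSO) and 32.5, 23.03 and 26.5 FPKM (C646). Ifi27l2a was the member whose highest untreated tumor was not tumor 3, with 159, 23.99 and 76.6 FPKM.

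Of 11980 genes outside the list, 10 rose with the interferon score (0.0835%) and 0 fell (0%) in limma, while 793 had an unadjusted p under 0.05. The interferon list was itself chosen with results of these data known, so these counts are a description and not independent support for it. All 10 genes are named, a choice made after their values were seen. They were Apol9a and Apol9b, a pair of near-identical apolipoproteins, Oas1g, Parp12, Lgals9, Slfn2, Ddx60, Phf11d, the class I gene H2-Q8 and the joined row Igtp,Irgm2, which holds a gene of the list. The Apol9, Oas1 and H2-Q families hold close copies, so that reads of these genes may be shared with relatives. Apol9a had a slope of 1.43 (SE 0.11, adjusted p = 0.0057 in limma) and 6.23, 13.9 and 31.8 FPKM (untreated), 105, 3 and 47.4 FPKM (DMSO) and 3.56, 3.72 and 2.52 FPKM (C646). Lgals9, a galectin, had a slope of 0.70 (SE 0.07, adjusted p = 0.013 in limma) and 40.5, 53.5 and 96.7 FPKM (untreated), 176, 33.7 and 144 FPKM (DMSO) and 41.5, 33.8 and 37.2 FPKM (C646). The count was 0 without DMSO tumor 1 and 0 without DMSO tumor 2, 1 without untreated tumor 3, 6 without untreated tumor 1, 6 without C646 tumor 1, 5 without C646 tumor 3 and 22 without DMSO tumor 3. Genes of class I antigen presentation had the same order in the DMSO tumors: B2m, the light chain of class I molecules, was at 343, 268 and 558 FPKM (untreated), 1384, 246 and 453 FPKM (DMSO) and 342, 271 and 285 FPKM (C646), Tap1, a peptide transporter, at 18.1, 15.7 and 34.5 FPKM (untreated), 60.1, 14.5 and 48.5 FPKM (DMSO) and 21.5, 17.8 and 19.9 FPKM (C646), and all 7 measured members were highest in DMSO tumor 1 and lowest in DMSO tumor 2, beside 34.1% and 28.3% of all genes.

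Interferon factors bind an element in the promoters of such genes, and 3 promoters are shown because their genes have the largest SD of the list among those that hold it. The motif searched for was GAAANNGAAA on both strands, in RefSeq windows of 250 bases before to 50 after a start site (build GRCm38.p6, which is mm10). It was found in 11 of the 18 members that have a window (61.1%) and in 1079 of 27025 genes (3.99%). Capitals mark the matches, which are letters and not shown to be bound here, and a match on the other strand is printed as its reverse complement. The windows are those of Oas3 at chr5:120777610-120777909 (minus strand), Rsad2 at chr12:26456403-26456702 (minus strand) and Ifit1 at chr19:34640639-34640938 (plus strand), each read 5′ to 3′ on the strand of its gene.
Oas3: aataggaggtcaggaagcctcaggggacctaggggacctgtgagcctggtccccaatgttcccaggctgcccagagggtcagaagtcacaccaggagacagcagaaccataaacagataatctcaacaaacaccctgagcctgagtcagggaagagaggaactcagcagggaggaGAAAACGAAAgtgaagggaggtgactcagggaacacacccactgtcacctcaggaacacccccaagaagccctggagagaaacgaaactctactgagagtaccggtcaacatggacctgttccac
Rsad2: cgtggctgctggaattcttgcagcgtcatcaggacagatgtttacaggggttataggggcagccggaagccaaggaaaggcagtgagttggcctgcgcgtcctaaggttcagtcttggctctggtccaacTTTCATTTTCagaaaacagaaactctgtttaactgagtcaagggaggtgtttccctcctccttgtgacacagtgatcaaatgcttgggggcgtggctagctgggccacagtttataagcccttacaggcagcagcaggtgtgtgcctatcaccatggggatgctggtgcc
Ifit1: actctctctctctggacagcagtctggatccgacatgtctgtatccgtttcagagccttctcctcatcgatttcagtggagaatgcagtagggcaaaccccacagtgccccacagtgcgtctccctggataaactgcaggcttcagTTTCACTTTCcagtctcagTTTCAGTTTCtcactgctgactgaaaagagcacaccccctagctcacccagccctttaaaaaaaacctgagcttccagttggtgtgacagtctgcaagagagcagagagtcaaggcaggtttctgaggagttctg
The first 2 windows hold 1 match each and that of Ifit1 holds 2.

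Hypoxia and glycolysis genes had the same low tumor. Vegfa, the main growth factor of blood vessels, was at 12.4, 34.5 and 26.4 FPKM in the untreated, 183, 19.6 and 104 in the DMSO and 43.8, 23.6 and 22.4 in the C646 tumors, so that DMSO tumor 2 lay below all C646 tumors. Car9, a carbonic anhydrase of the cell surface, had 7.41, 7.16 and 16.4 FPKM (untreated), 104, 21.99 and 27.7 FPKM (DMSO) and 24.2, 12.9 and 7.47 FPKM (C646), and the glucose transporter Slc2a1 had 62.5, 117 and 65.6 FPKM (untreated), 178, 49.2 and 121 FPKM (DMSO) and 71.2, 59.1 and 48.4 FPKM (C646). Members with a larger SD were Ankrd37, at 8.31, 1.05 and 30.3 FPKM in the DMSO tumors (SD 1.61), Adm, the vessel-dilating peptide adrenomedullin, at 46.3, 4.48 and 48.2 FPKM (SD 1.58), and Ak4, a mitochondrial adenylate kinase, at 26.8, 2.34 and 15.9 FPKM (SD 1.37). Gapdh, listed near 0 in the untreated tumors as given above, had an SD of 1.41. In all, 26 of 29 members were lowest in DMSO tumor 2, beside 28.3% of all genes, and 21 were highest in DMSO tumor 1 (34.1% of all genes), while Ndrg1, at 129, 52.2 and 282 FPKM, was among those highest in DMSO tumor 3. The median SD was 0.65 and 6 of 29 members had an SD of at least 1. The score was 0.79, -1.13 and 0.35 in the DMSO tumors, and its SD of 0.67 was 0.38 without DMSO tumor 2. Limma found 0 of 11979 genes outside the list that rose or fell with this score (0% each), with 817 at an unadjusted p under 0.05, and 2 genes without DMSO tumor 1.

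For hypoxia genes the motifs ACGTG and GCGTG, the core of the element that HIF factors bind, were searched in the same windows on both strands. They were found in 26 of 27 members with a window (96.3%) and in 12628 of 27025 genes (46.7%), so that such a short motif is common. The 2 members with the largest SD are shown, Ankrd37 at chr8:45999801-46000100 (minus strand) and Adm at chr7:110627407-110627706 (plus strand), with matches in capitals, where overlapping matches run together.
Ankrd37: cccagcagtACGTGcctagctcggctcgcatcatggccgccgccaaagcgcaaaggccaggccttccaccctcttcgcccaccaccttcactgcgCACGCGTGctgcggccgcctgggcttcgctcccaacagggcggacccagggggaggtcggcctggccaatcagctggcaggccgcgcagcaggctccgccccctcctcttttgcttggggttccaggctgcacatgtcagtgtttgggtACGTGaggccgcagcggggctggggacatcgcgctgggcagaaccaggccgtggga
Adm: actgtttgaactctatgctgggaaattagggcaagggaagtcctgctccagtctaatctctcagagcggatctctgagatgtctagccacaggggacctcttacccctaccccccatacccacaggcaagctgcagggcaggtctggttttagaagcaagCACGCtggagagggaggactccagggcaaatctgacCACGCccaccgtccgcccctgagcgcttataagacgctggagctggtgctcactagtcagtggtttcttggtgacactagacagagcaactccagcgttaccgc
The window of Ankrd37 holds 4 matches and that of Adm 2.

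Stroma varied less than fat, and was led by the same tumors of the untreated and C646 conditions. Col1a1, a chain of type I collagen, was at 197, 78.9 and 94.8 FPKM in the untreated, 85.8, 104 and 157 in the DMSO and 111, 118 and 214 in the C646 tumors. Col1a2 had 78.2, 53.5 and 52.9 FPKM (untreated), 68.8, 91.9 and 121 FPKM (DMSO) and 89.5, 84.5 and 182 FPKM (C646) and Col3a1 had 207, 99.8 and 77.9 FPKM (untreated), 41.8, 114 and 118 FPKM (DMSO) and 109.5, 125 and 235 FPKM (C646). Dpt, a matrix protein of skin and connective tissue, had the largest SD of the list (1.62), with 0.274, 5.797 and 5.87 FPKM in the DMSO tumors. All 19 fibroblast and collagen members were highest in C646 tumor 3 within C646, and 18 of 19 were highest in untreated tumor 1, beside 34.0% and 43.4% of all genes, while within DMSO 15 of 19 were highest in tumor 3 (37.4% of all genes). Endothelial genes were lower in SD: Pecam1 was at 10.3, 9.26 and 5.33 FPKM (untreated), 12.2, 11.2 and 23.8 FPKM (DMSO) and 17.7, 13.9 and 18.8 FPKM (C646) and Cdh5, the cadherin of vessels, at 4.91, 5.11 and 3.54 FPKM (untreated), 8.01, 7.45 and 11.4 FPKM (DMSO) and 9.24, 6.77 and 7.11 FPKM (C646), and 11 of 12 members were highest in DMSO tumor 3, beside 37.4% of all genes. Class II antigen presentation genes, which macrophages and other presenting cells use, were highest in untreated tumor 1 for all 4 measured members, beside 43.4% of all genes. H2-Aa was at 78.3, 21.2 and 32.9 FPKM and H2-Ab1 at 119, 30.3 and 41.6 FPKM in the untreated tumors.

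**Figure D3:**
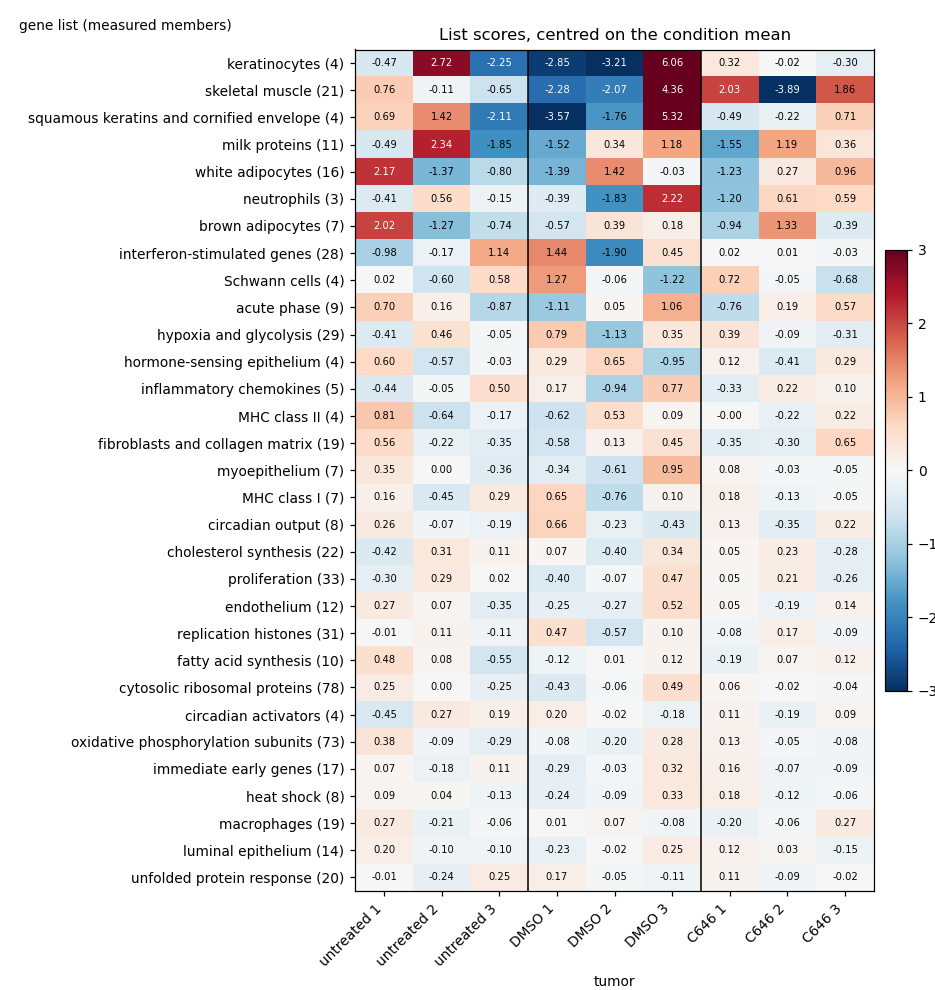
Scores of the 31 lists with at least 3 measured members (rows, member counts in brackets) in the 9 tumors (columns), as the mean centred log2 value, with colors ending at -3 and 3 and lists in falling order of score SD. Keratinocyte and squamous scores reach 6.06 and 5.32 in DMSO tumor 3, the muscle score is 4.36 there and -3.89 in C646 tumor 2, and the interferon score lies between -0.03 and 0.02 in the C646 tumors.

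Proliferation genes had a median SD of 0.37, above the 0.277 of all genes. The proliferation score had an SD of 0.34, and 0 of its 33 members had an SD of at least 1. Mki67, a marker of dividing cells, was at 16.2, 25.98 and 20.4 FPKM (untreated), 22.9, 40.2 and 43.3 FPKM (DMSO) and 52.3, 43.7 and 35.4 FPKM (C646), Top2a, the topoisomerase of S and G2 phase, at 16.5, 25.6 and 24.2 FPKM (untreated), 20.8, 27.9 and 33.8 FPKM (DMSO) and 32.99, 35.5 and 26.8 FPKM (C646), and Ccnb1, the mitotic cyclin, at 13.4, 28.3 and 18.97 FPKM (untreated), 17.5, 21.9 and 37.1 FPKM (DMSO) and 28.5, 33.6 and 22.8 FPKM (C646). The members had a common order: 33 of 33 were highest in DMSO tumor 3 and 31 lowest in DMSO tumor 1, beside 37.4% and 35.9% of all genes. Limma found 0 of 11975 genes that rose or fell with the proliferation score and 0 of 11994 with the luminal score (0% in each direction), with 1666 and 1392 at an unadjusted p under 0.05, and 6 genes for proliferation without C646 tumor 3. Cytosolic ribosomal proteins were also highest in DMSO tumor 3 (73 of 78) and lowest in DMSO tumor 1 (73 of 78), with scores of 0.49 and -0.43. Replication histones had a median SD of 1.13, and 16 of 31 measured members had an SD of at least 1. Their score was 0.47 in DMSO tumor 1 and -0.57 in DMSO tumor 2, and its SD of 0.32 was 0.16 without DMSO tumor 2. Over the 9 tumors, which share their libraries, it correlated with the hypoxia score at r = 0.85 and with the interferon score at r = 0.74. These pairs were not among the 20 fixed and were not tested. Some other pairs of lists had a larger r, such as myoepithelium with endothelium at 0.93. The libraries were made from poly-A RNA, and most of these histone messages carry no poly-A tail. Whether these shifts have a part in the results above was not tested. The unfolded protein response had the smallest score SD of all lists, 0.18.

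The 13 pairs of lists that could be compared, of 20 fixed, gave 0 pairs with an adjusted p under 0.05, by exact permutation of tumors within conditions. These tests were two-sided with Benjamini-Hochberg adjustment over the 13 pairs, and their smallest possible p is 0.00463. The closest was white with brown adipocytes (Pearson r = 0.80, exact permutation p = 0.042, adjusted 0.24, Spearman rho = 0.82, exact permutation p = 0.019, adjusted 0.24, n = 9). Values of r without 2 tumors, those farthest from the median, keep the scores of the other tumors as they were. Here r was 0.63 without untreated tumor 1 and DMSO tumor 2. Without untreated tumor 1 alone, with genes filtered and centred anew, r was 0.33. It was thus lower without that tumor in either case. Class I presentation with interferon-stimulated genes had r = 0.80 (exact permutation p = 0.13, adjusted 0.41) and rho = 0.78 (p = 0.088, adjusted 0.36), and r = 0.30 without DMSO tumors 1 and 2, so the relation rests on those tumors. Endothelium with fibroblasts had r = 0.69 (exact permutation p = 0.056, adjusted 0.24) and rho = 0.65 (p = 0.093, adjusted 0.36), and r = 0.62 without untreated tumor 3 and DMSO tumor 3. Macrophages with class II presentation had r = 0.67 (exact permutation p = 0.056, adjusted 0.24) and rho = 0.65 (p = 0.11, adjusted 0.36), and r = 0.41 without untreated tumor 1 and C646 tumor 3. The other 9 pairs had r between -0.36 and 0.66, with adjusted p of r between 0.445 and 0.935 by the same exact permutation test. Within the 6 injected tumors alone, the 4 pairs named first had r = 0.54, 0.97, 0.64 and 0.31, with exact permutation p of 0.33, 0.083, 0.22 and 0.39, where the smallest possible p is 0.0278.

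**Figure D4:**
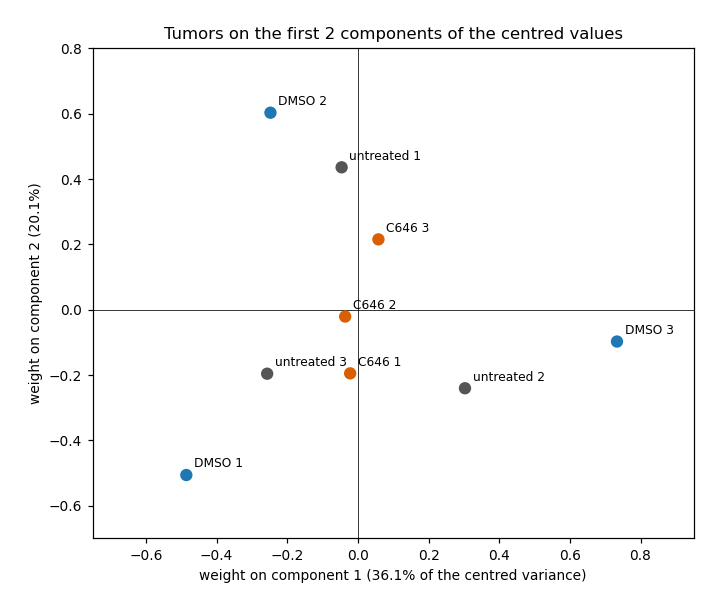
Weights of the 9 tumors on the first 2 components of the centred values of all 12008 genes, with the share of variance on the axes; untreated tumors are gray, DMSO tumors blue and C646 tumors orange. DMSO tumors 1, 2 and 3 lie farthest out, and the 3 C646 tumors and untreated tumor 1 lie near 0 on component 1, between -0.046 and 0.058.

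A decomposition of all centred values put the same tumors apart. The first component held 36.1% of the variance and set DMSO tumor 3 (weight 0.73) against DMSO tumor 1 (-0.49). Its positive end was held by Krt73, the row 2210011C24Rik,Mir1199, Calm4, Crct1 and Krtdap, and its negative end by Scgb1b27, Prol1, Scgb2b26, the row Mucl1,Spt1 and Mup5. The second component held 20.1% and set DMSO tumor 2 (0.60) and untreated tumor 1 (0.44) against DMSO tumor 1 (-0.51), with Rnu11, the fat genes Retn, Cidec and Rbp4, and S100g, a calcium-binding protein, at one end, and Slc22a27, Snora64, Mgarp, Hist4h4 and Hist1h4d at the other. The third component held 16.1%, with the largest weight for C646 tumor 2 (0.55).

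The 500 genes with the largest SD, all at or above 1.26, formed 6 groups of at least 20 genes that together held 390 of them. The largest, of 133 genes, held all 4 keratinocyte, all 4 squamous and 7 of the 11 milk members, and its mean was 3.33 in DMSO tumor 3 and 1.37 in untreated tumor 2. Most of these keratinocyte and squamous members had passed the filter through DMSO tumor 3, which fixed their place here. The muscle group of 71 genes held 20 of the 21 muscle members. A group of 62 genes held 12 interferon-stimulated, 4 hypoxia and 4 replication histone members and had its lowest mean, -3.0, in DMSO tumor 2. The fat group of 33 genes held 10 white and 3 brown adipocyte members and had a mean of 3.56 in untreated tumor 1. A group of 68 genes matched no list well, with 2 of the 4 measured Schwann cell markers, and had its highest mean, 2.40, in DMSO tumor 1. Its members include S100b, at 7.13, 1.49 and 9.27 FPKM (untreated), 92.2, 7.02 and 2.58 FPKM (DMSO) and 24.6, 5.12 and 1.34 FPKM (C646), Dhh, a signaling protein of Schwann cells among others, at 2.12, 1.19 and 20.2 FPKM (untreated), 35.3, 1.32 and 1.25 FPKM (DMSO) and 7.84, 1.67 and 0.325 FPKM (C646), and Col2a1, a collagen of cartilage, at 2.52, 0.547 and 5.55 FPKM (untreated), 277, 1.26 and 1.49 FPKM (DMSO) and 2.42, 0.409 and 1.503 FPKM (C646). The glial factor Sox10, which mammary cells also make, was steady at 185, 143 and 166 FPKM (untreated), 173, 234 and 171 FPKM (DMSO) and 285, 239.7 and 243 FPKM (C646). With the score of the 4 measured Schwann cell markers 60 of 12004 genes rose (0.5%) and 16 fell (0.133%) in limma, the largest count of the 31 lists fitted, and 1771 had an unadjusted p under 0.05. This list was not among those planned to be reported, so its counts are a description. Its adjusted p values take no account of the number of lists fitted. Those with the smallest p outside all lists were Tesc, with a slope of 1.79 (SE 0.15, adjusted p = 0.012 in limma), LOC100504703, Arhgap31, Dusp6 and Fam175b among the genes that rose, and Ccl8, Apobr, Rnf183, Cel and Cdca7 among those that fell. The count was 0 without DMSO tumor 1, 1 without untreated tumor 2, 4 without DMSO tumor 3, 5 without untreated tumor 3, 17 without C646 tumor 2, 48 without C646 tumor 1 and 147 without C646 tumor 3. The groups were made from the same values and carry no test.

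**Figure D5:**
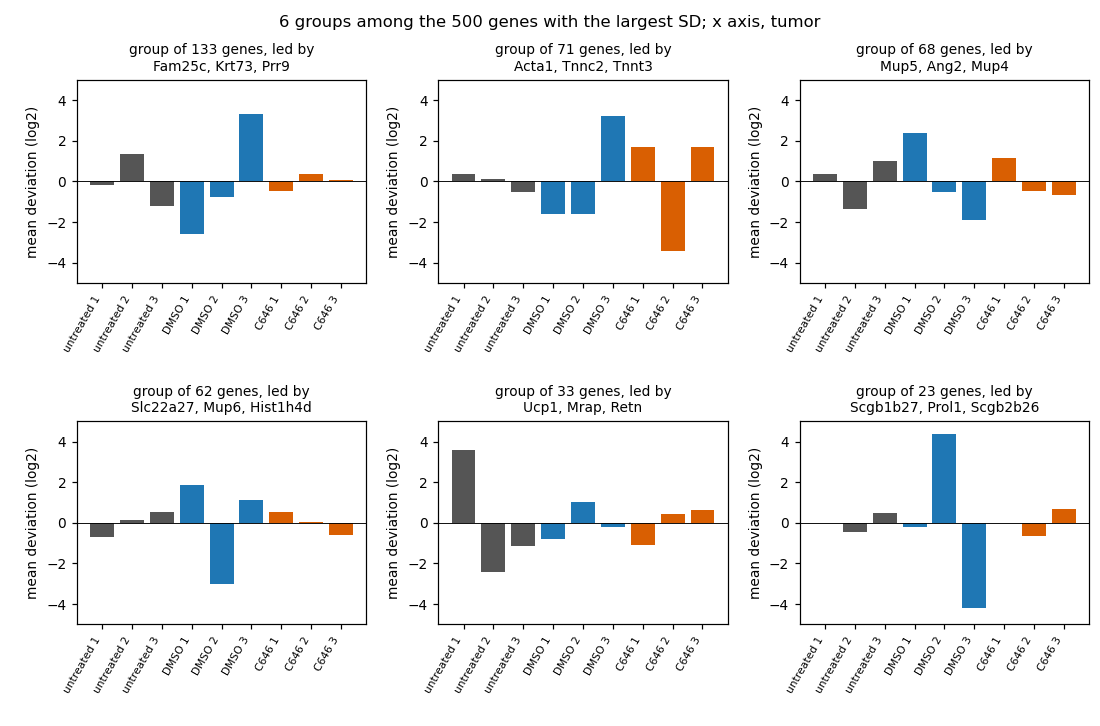
Mean centred log2 value of each of the 6 groups among the 500 genes with the largest SD in each tumor (untreated gray, DMSO blue, C646 orange), with the number of genes and 3 leading genes above each panel. DMSO tumor 3 leads the group of Krt73, C646 tumor 2 is lowest in the muscle group, and DMSO tumors 2 and 3 are the ends of the Scgb1b27 group.

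Conditions were compared against the spread within them. Across the 3 conditions 2505 of 12008 genes differed in limma's F test (20.9%) at an adjusted p under 0.05, where experiment and injection cannot be told apart. This count was 1244 without untreated tumor 1, 1436 without untreated tumor 3, 1640 without C646 tumor 2 and 1514 without C646 tumor 3. Between C646 and DMSO tumors 0 genes passed (0%) in the same limma fit, and 387 had an unadjusted p under 0.05. The F test called 0 of 28 interferon-stimulated, 1 of 16 white adipocyte, 1 of 11 milk and 5 of 21 muscle members, beside 20.9% of all genes. Isg15 had a log2 difference of -2.45 (C646 minus DMSO, SE 0.93, unadjusted p = 0.028 and adjusted p = 1 in limma) and Vegfa one of -1.33 (SE 0.74, unadjusted p = 0.10, adjusted p = 1 in limma), and for both genes DMSO tumor 2 lay among or below the C646 tumors. White adipocyte genes had a median difference of 3.14 (C646 minus DMSO), with 11 of 16 members at an unadjusted p under 0.05 in limma and a smallest adjusted p of 1, and in 10 of the 16 all C646 tumors lay above all DMSO tumors, as in 3.95% of all genes. The interferon list had a median difference of -1.75 beside -0.02 for all genes, and in 4 of its 28 members (Oasl1, Mx2, Ddx58 and Ifih1) all C646 tumors lay below all DMSO tumors, as in 4.54% of all genes.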

How the data were processed

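Pieces of tissue (20 mg) had been used for poly-A selected, non-directional RNA-seq libraries, so reads of a gene and its antisense partner cannot be told apart. Per the labels and methods, the authors mapped reads to mm10 with TopHat2 2.1.1 and made the deposited FPKM values with Cufflinks 2.2.1, in 1 file per sample. No counts are given, so depth could only be estimated, as ratios between tumors. Each replicate is a separate mouse or, for normal glands, a pool.

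From these files, FPKM of repeated gene names were summed, names present in all files were kept, and genes with a mean of at least 1 FPKM over the 9 tumors were used as log2(FPKM + 0.03125), centred per condition. Gene names were matched exactly. Of 12008 genes, 345 were small RNA genes (59) or rows of joined names (286). List scores needed 3 measured members, and 7 of 20 fixed pairs of lists were left out since a list had fewer. Tests across genes used limma 3.58.1 (R 4.3.3) with a variance trend and Benjamini-Hochberg adjustment, with condition as factor and, for genes that follow a program, the list score as covariate and the genes of that list left out. Pairs of scores were compared with two-sided exact permutation of tumors within conditions (Python 3.11.15, scipy 1.17.1). Groups of genes are average-linkage clusters of the 500 genes of largest SD at a correlation of 0.5. The limma fits were tested on simulated data.

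Members, lists and tests were chosen with earlier results of these data known. Named were the 20 genes of largest SD, the 10 of largest SD at 10 FPKM, the first 3 members of a list and up to 4 more by SD, the 5 genes with the smallest p in each direction, the 5 genes at each end of 2 components and 3 genes on each side of 1 FPKM. A few genes that this rule names are not reported here. Others, such as members of gene groups and the genes that follow the Schwann cell score, were chosen after their values were seen. Alternatives were other pseudocounts, filters, scalings, scores, a replicate block, injected tumors alone and leaving out each tumor.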

Additional observations from a re-analysis of the deposited data

How the results depend on the processing

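With another pseudocount, filter or scaling, the median SD lay between 0.233 and 0.276, except for 0.412 with no filter on the mean. Genes with an SD of at least 1 numbered 350 with a pseudocount of 1, 3431 with no filter, 200 at a mean of at least 10 FPKM and 455 among genes above 0 in all tumors, a setting chosen after seeing the data, as was leaving out small RNA genes and joined names. With no filter, at a mean of at least 10 FPKM and among genes above 0, 232, 129 and 238 of the 500 genes of largest SD were shared. Leaving out each tumor gave medians from 0.255 to 0.289 and counts from 594 to 785.

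The F test called 1489 genes at a mean of at least 10 FPKM and between 1244 and 3218 without 1 tumor, and C646 against DMSO called 0 genes in limma under all 10 other settings and without any tumor (0 to 0), as did the pairs of lists (0 to 0). Unadjusted p under 0.05 between C646 and DMSO numbered 387. Apart from leaving out a tumor, counts of genes that followed a score moved with most settings for keratinocytes, muscle and squamous genes. For the other lists given here they stayed alike in most settings. Schwann cells moved in 5 and stayed alike in 6, and interferon moved in 2 and stayed alike in 9. With pseudocounts of 1 and 0.25 they were 101 and 76 for keratinocytes, 5 and 7 for muscle, 109 and 98 for squamous genes and 2 and 2 for hypoxia. With no filter they were 207 for keratinocytes, 26 for muscle, 184 for squamous genes and 28 for Schwann cells. At a mean of at least 10 FPKM muscle gave 4 and Schwann cells 40, and muscle gave 2 among genes above 0, where hypoxia gave 1, and the keratinocyte and squamous lists then had too few members for a score. Quantile normalization gave 38 for keratinocytes and 9 for muscle, and scaling by the median ratio 81 for squamous genes and 1 for proliferation. With no variance trend there were 47 for keratinocytes, 26 for muscle, 5 for Schwann cells and 1 for proliferation. In the injected tumors alone there were 5 for keratinocytes, 0 for muscle, 0 for squamous genes, 2 for milk, 0 for interferon and 1 for Schwann cells. Leaving out each tumor gave 4 to 150 for keratinocytes and 3 to 273 for squamous genes (8 fits each), 3 to 16 for muscle, 0 to 1 for milk, 0 to 6 for proliferation, 0 to 0 for luminal genes, 0 to 2 for hypoxia, 0 to 22 for interferon and 0 to 147 for Schwann cells. The cause was not tested.

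Tumors with the same number do not pair: their deviations correlated between -0.371 and 0.155, against -0.241 and 0.408 for different numbers. With the replicate block limma's F test called 1597 genes, and the genes that followed a score were 1 for keratinocytes, 3 for muscle, 14 for squamous genes, 1 for interferon and 11 for Schwann cells.

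Some weak correlations changed sign. Luminal genes with proliferation gave r = -0.0794 with the score as a median. Luminal genes with milk gave -0.27 with the median and -0.22 with unit SD. Chemokines with acute phase genes gave -0.183 with the median, -0.0976 and -0.0109 with pseudocounts of 1 and 0.25, -0.178 with no filter and -0.0027 with quantile normalization. Muscle with brown adipocytes gave 0.00346 with a pseudocount of 1 and 0.0733 at 10 FPKM, and hypoxia with endothelium -0.0449 with no filter. Without 1 tumor these ranged from -0.0145 to 0.909, -0.185 to 0.480, -0.555 to 0.335, -0.369 to 0.239 and -0.372 to 0.443, and fatty acid with cholesterol synthesis from -0.525 to 0.180. FPKM carry no counts, so the depth behind a low value is unknown.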

Other observations

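Acute phase genes, which the liver and inflamed epithelia make, were among the more variable lists. Saa1, a serum amyloid protein, was at 1632, 1591 and 465 FPKM in the untreated, 202, 649 and 1551 in the DMSO and 524, 491 and 744 in the C646 tumors, so that DMSO tumor 1 was lowest of the 9. Saa2, a close relative whose reads can be hard to separate from those of Saa1, had 1174, 1516 and 401 FPKM (untreated), 119, 413 and 1289 FPKM (DMSO) and 422, 495 and 522 FPKM (C646). Hp, haptoglobin, had 267, 21.1 and 33.2 FPKM (untreated), 82.1, 50.7 and 216 FPKM (DMSO) and 33.9, 113 and 123.2 FPKM (C646), while Lcn2, an iron carrier and the highest gene of the list, differed less, with 8476, 7116 and 12509 FPKM (untreated), 13089.6, 7267 and 7059 FPKM (DMSO) and 6816, 5996 and 6487 FPKM (C646). Of the 9 measured members 5 had an SD of at least 1, and 7 were highest in DMSO tumor 3 and 7 lowest in DMSO tumor 1 within DMSO, beside 37.4% and 35.9% of all genes.

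Cholesterol synthesis genes had a median SD of 0.395, above the 0.277 of all genes, and a common order. Hmgcs1, an early enzyme of the pathway, was at 13.6, 23.7 and 19.7 FPKM in the untreated, 26.9, 17.8 and 40.2 in the DMSO and 18.6, 25.4 and 17.1 in the C646 tumors, and Sqle, squalene epoxidase, was at 15.6, 40.95 and 31.7 FPKM (untreated), 32.9, 23.5 and 46.4 FPKM (DMSO) and 30.4, 29.2 and 22.6 FPKM (C646). Of the 22 measured members, 18 were lowest in untreated tumor 1, 18 in DMSO tumor 2 and 18 in C646 tumor 3 within their conditions, beside 30.7%, 28.3% and 32.7% of all genes, and 0 had an SD of at least 1. Genes under the circadian clock were led by DMSO tumor 1: Dbp, a clock-driven transcription factor, was at 33.1, 5.02 and 8.42 FPKM (untreated), 43.99, 22.3 and 11.2 FPKM (DMSO) and 10.8, 3.91 and 8.91 FPKM (C646), and 7 of 8 members were highest there, beside 34.1% of all genes. The score SD of that list was 0.40 and was 0.25 without DMSO tumor 1. The times of day at which tumors were taken are not given in the sources used here.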
